A study of Mus musculus with 6 samples.

Results

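The 10 genes described here encode proteins that neutrophils store in granules or hold in the cytosol, and they were followed by maturation stage through 3 sorted cell subsets of the mouse dorsal root ganglion (DRG). They are the primary granule genes Elane and Mpo, the secondary granule genes Ngp, Camp, Ltf, Lcn2 and Mmp8, the late-expressed secreted factor gene Retnlg, and the cytosolic genes S100a8 and S100a9. All 10 were found by symbol among the 23029 genes of the deposited table. The set was chosen by textbook role after S100a9, Ngp and Lyz2 had been seen to be higher in DP than in C-LTMR, so the DP and C-LTMR values of the 10 genes are given as a description, without a test.

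Every animal carried the genotype GINIP+/mcherry, in which a red fluorescent reporter marks the cells that express GINIP, a modulator of inhibitory G protein signalling. Cells were sorted by that reporter and by isolectin B4 (IB4), a lectin that stains many non-peptidergic nociceptors. DP cells (IB4+GINIP+) are labelled as Mrgprd+ neurons, C-LTMR cells (IB4-GINIP+) as low-threshold mechanoreceptors with unmyelinated axons, and the remaining sensory neurons as DN (IB4-GINIP-). A mean ± SD is over the 2 libraries of a subset. Whether these came from separate animals is not said in the labels, and the spread behind each p-value may thus be technical. No treatment other than the sort is named, and age is not given in the sources used here. Each library was made from 50 ng of total RNA after amplification. Values are given in RPKM, which scales reads by gene length in kilobases and by the library's reads in M.

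Neutrophils make their granule proteins in successive waves while they mature in the bone marrow. Primary (azurophil) granule enzymes are transcribed in promyelocytes, secondary (specific) granule proteins in myelocytes and metamyelocytes, and tertiary granule proteins, receptors and the cytosolic calprotectin subunits S100a8 and S100a9 remain expressed in later cells. Transcription factors of the C/EBP family and PU.1 drive these genes, and mature neutrophils circulate in blood and enter inflamed or injured nerve tissue.

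The sequences just upstream of 5 of the genes are shown because S100a8 and S100a9 were the most abundant of the set in DP, Ngp and Ltf represent the secondary granule wave, and Elane the primary wave. They come from RefSeq promoters of GRCm38.p6, in which all 10 genes were matched, and are printed 5′ to 3′ on the strand of the gene. Each starts 250 bases before the RefSeq start and stops before the most upstream annotated transcript start. Capitals mark C/EBP-like matches (TTNNGNAA or its reverse complement TTNCNNAA). The stretches are chr3:90668821-90668977 (+ strand) for S100a8, chr3:90695722-90695971 (− strand) for S100a9, chr9:110419558-110419746 (+ strand) for Ngp, chr9:111019042-111019270 (+ strand) for Ltf and chr10:79886062-79886246 (+ strand) for Elane.
S100a8: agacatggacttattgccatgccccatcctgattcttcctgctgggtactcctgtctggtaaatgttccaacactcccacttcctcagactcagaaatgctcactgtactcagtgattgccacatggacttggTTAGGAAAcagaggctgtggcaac
S100a9: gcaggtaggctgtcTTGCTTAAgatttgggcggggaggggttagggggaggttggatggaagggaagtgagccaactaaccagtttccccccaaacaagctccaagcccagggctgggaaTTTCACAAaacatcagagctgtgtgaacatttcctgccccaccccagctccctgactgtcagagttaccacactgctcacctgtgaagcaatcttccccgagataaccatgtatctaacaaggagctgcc
Ngp: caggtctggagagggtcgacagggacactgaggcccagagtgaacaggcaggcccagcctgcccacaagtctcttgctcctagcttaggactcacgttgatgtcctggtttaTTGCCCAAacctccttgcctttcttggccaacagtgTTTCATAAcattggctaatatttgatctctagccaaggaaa
Ltf: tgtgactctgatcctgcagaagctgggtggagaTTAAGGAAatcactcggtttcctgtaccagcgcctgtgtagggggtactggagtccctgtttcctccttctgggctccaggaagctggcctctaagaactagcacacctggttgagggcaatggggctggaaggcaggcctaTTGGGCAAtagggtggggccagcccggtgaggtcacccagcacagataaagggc
Elane: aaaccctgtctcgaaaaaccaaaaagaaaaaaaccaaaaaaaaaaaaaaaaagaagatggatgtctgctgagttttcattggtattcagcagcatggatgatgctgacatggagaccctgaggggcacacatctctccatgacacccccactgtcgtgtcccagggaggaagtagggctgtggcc
In windows of 300 bases (250 before to 50 after the start, both strands), a C/EBP-like match was present in 7 of the 10 genes and in 40.7% of the 32851 promoters of the table. The S100a8 match lay at -117 to -110 from the start. S100a9 held matches at -236 to -229 and -130 to -123, Ngp at -138 to -131, -102 to -95 and -11 to -4, and Ltf at -217 to -210 and -75 to -68. Camp, Elane and Mpo held no such letters in the window. A PU.1-like GAGGAA (reverse complement TTCCTC) was present in 6 of 10 and in 28.3% of promoters, and TATAAA (reverse complement TTTATA) in 3 of 10 and in 13.6%. These are letter matches and not measured binding sites.

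The libraries fitted their labels by neuronal markers. Mrgprd was at 219.8 and 277.2 RPKM in DP and at 2.01 or less in the other libraries, and Th, the enzyme of catecholamine synthesis that marks C-LTMRs, was at 1017 and 1038 RPKM in C-LTMR and at 61.7 or less elsewhere. The DN libraries also carried 5 glia and vessel markers (Prx, Fabp7, Cldn5, Pecam1, Col3a1) at a summed 1466 and 3830 RPKM, against 141 to 262 in DP and 195 to 441 in C-LTMR. Fabp7 made up most of each sum, and Prx, Cldn5 and Pecam1 were at 1.813 RPKM or less in the DP and C-LTMR libraries. Estimated depth was 32.0 to 43.1 M reads per library, and Pearson's r between the log2 values of replicates, over 13478 genes, ranged from 0.9875 (DN) to 0.9964 (DP).

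RNA of the 10 genes was present in DP, almost absent from C-LTMR and intermediate in DN. Summed over the 10 genes, it reached 256.1 and 283.0 RPKM in DP (269.6 ± 19.0, SD), 43.6 and 81.6 in DN (62.6 ± 26.9), and 0.306 and 0.207 in C-LTMR. Both DP libraries lay above both DN libraries in 10 of 10 genes, and both DN libraries lay above both C-LTMR libraries in 10 of 10. For Elane and Mpo the second order was within a few reads. Elane was at an estimated 1.1 and 2.1 reads in DN and 0 in C-LTMR. Mpo was at 4.8 reads in the second DN library and 5.0 in the first C-LTMR library. Over all 13478 genes tested, which do not include Elane and Mpo, 32.0% had the first order, 44.8% the second and 2.92% both orders together. The first and second orders share DP or C-LTMR libraries with the choice of the set. In bulk RNA, fewer cells of a type and less RNA per cell cannot be told apart.

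**Figure D1:**
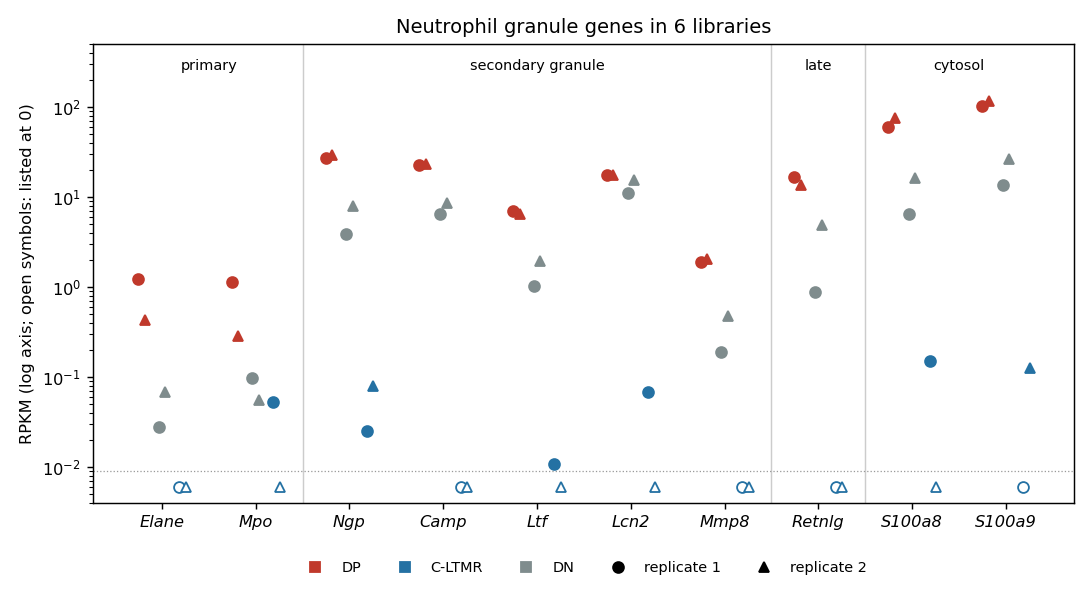
RPKM of the 10 genes in each library on a log axis, ordered by maturation stage. Red marks DP, grey DN and blue C-LTMR, circles replicate 1 and triangles replicate 2, and open symbols on the baseline are values listed at 0. The red symbols sit above the grey and the grey above the blue for each gene, with Elane, Mpo and Mmp8 lowest in DP. For Elane and Mpo the gap between grey and blue rests on a few reads.

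Differences against DN were tested with limma on log2(RPKM + 0.5) over 13478 genes that reached 0.5 RPKM in at least 2 libraries, and calls required a p under 0.05 after Benjamini-Hochberg adjustment together with a log2 fold change of at least 1 in either direction. Of the 10 genes 8 passed the filter, 7 of them on their DN values alone, Mmp8 only through DP, and Elane and Mpo did not pass. Of the 7 that DP values did not admit, 6 were called higher in DP than in DN, where 6.57% of all genes tested were called higher and 21.4% lower. In C-LTMR against DN, 7 of the 8 tested were called lower, where 19.8% of all genes tested were called lower and 7.26% higher. The comparisons share the DN libraries, and each uses libraries in view when the set was chosen, so the counts describe the set and do not stand as independent evidence of its direction. Quantile normalization moved the median log2 fold change of all genes from -0.155 to 0.133 in DP against DN and from -0.06 to 0.15 in C-LTMR against DN. The split of calls moved with it, from 885 higher and 2891 lower to 1599 and 2012 in DP against DN, and from 978 higher and 2672 lower to 1600 and 1932 in C-LTMR against DN. The calls of the 8 genes did not change under it.

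The primary granule genes were the lowest of the set. Elane (neutrophil elastase, Entrez 50701, chr10:79886312-79888216, + strand) was at 1.21 and 0.426 RPKM in DP, 0.0279 and 0.0674 in DN, and listed at 0 in both C-LTMR libraries. Mpo (myeloperoxidase, which makes hypochlorous acid; Entrez 17523, chr11:87793784-87804412, + strand) was at 1.14 and 0.287 RPKM in DP, 0.0976 and 0.0551 in DN, and 0.0529 and 0 in C-LTMR. The DP libraries did not overlap the others for either gene, and replicate 1 exceeded replicate 2 by 2.85-fold for Elane and 3.96-fold for Mpo. Elane in DP rested on an estimated 51.5 and 16.1 reads, and in DN on 1.1 and 2.1 reads, which is under the floor of 3 reads per library, so its order between DN and C-LTMR was not detectable at this depth. Mpo was likewise at an estimated 4.8 reads in the second DN library and 5.0 in the first C-LTMR library. With no filter on low values (18888 genes), limma gave Elane a log2 difference between DP and DN of 1.20 (SE 0.279, adjusted p = 0.0175), and Mpo 0.98 (SE 0.333, adjusted p = 0.0592), which did not pass. Ctsg, a primary granule protease outside the set, was also higher in the first DP library, at 0.925 and 0.208 RPKM, and was at 0 in both C-LTMR libraries. The rest of its list did not share so wide a split. In DP, Prtn3 was at 1.37 and 0.888 RPKM, Fcnb at 0.390 and 0.342, and Ms4a3 at 47.7 and 42.7. Myb (0.0853 and 0.111) and Gfi1 (0.00897 and 0.0197) were higher in the second DP library.

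The secondary granule genes made up the middle of the range. Ngp (neutrophilic granule protein, Entrez 18054, chr9:110419808-110423012, + strand) was at 27.3 and 29.1 RPKM in DP, 3.89 and 7.92 in DN, and 0.0252 and 0.0800 in C-LTMR. Its log2 fold change in limma was 2.24 in DP against DN (SE 0.282, adjusted p = 0.000569) and -3.46 in C-LTMR against DN (adjusted p = 8.43e-05). The DP replicates nearly coincided, and the DN replicates differed by 2.03-fold.

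Camp (cathelicidin, an antimicrobial peptide precursor; Entrez 12796, chr9:109847377-109849456, − strand) was at 22.3 and 23.2 RPKM in DP, 6.43 and 8.62 in DN, and 0 in both C-LTMR libraries. DN thus held 33.1% of the DP mean, a larger share than the 20.9% of Ngp, and the limma log2 fold change was 1.55 in DP against DN (SE 0.151, adjusted p = 0.000181) and -3.99 in C-LTMR against DN (adjusted p = 5.01e-06). Ltf (lactoferrin, which binds iron; Entrez 17002, chr9:111019292-111042766, + strand) was at 7.01 and 6.50 RPKM in DP, 1.03 and 1.94 in DN, and 0.0107 and 0 in C-LTMR. Its log2 fold change was 1.91 in DP against DN (SE 0.218, limma adjusted p = 0.000371) and -1.94 in C-LTMR against DN (adjusted p = 0.000353).

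Mmp8 (neutrophil collagenase, Entrez 17394, chr9:7558429-7568486, + strand) was the lowest secondary granule gene. Its DP libraries were at 1.88 and 2.03 RPKM, its DN libraries at 0.188 and 0.480, and both C-LTMR libraries at 0. The limma log2 fold change of DP against DN was 1.58 (SE 0.181), given without a test because the gene passed the filter only through DP. The C-LTMR difference from DN was -0.72 (adjusted p = 0.0131) and missed the fold threshold. It passed with a pseudocount of 0.1 (-2.03, adjusted p = 0.00225), since the added 0.5 exceeds the DN values.

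Lcn2 (lipocalin 2, a siderophore-binding protein that glia and epithelia also make; Entrez 16819, chr2:32384637-32387739, − strand) stood apart from the other secondary granule genes in DN. It was at 17.5 and 17.4 RPKM in DP, 11.2 and 15.3 in DN, and 0.0685 and 0 in C-LTMR. The DN level was 76.0% of the DP mean, against 17.1% to 33.1% for the other 4 secondary granule genes. The DP libraries lay just above the DN libraries, and the log2 fold change of 0.40 (SE 0.166, limma adjusted p = 0.0739) did not pass, whereas the log2 fold change of C-LTMR against DN was -4.67 (adjusted p = 4.25e-06). Within a library, Lcn2 RPKM divided by Ngp RPKM was 0.639 and 0.596 in DP and 2.87 and 1.93 in DN. DN also held the highest sums of glia and vessel markers, and their part in the Lcn2 level was not tested.

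Retnlg (resistin-like gamma, a secreted factor of late-stage neutrophils; Entrez 245195, chr16:48872608-48874498, + strand) was at 16.8 and 13.6 RPKM in DP, 0.885 and 4.87 in DN, and 0 in both C-LTMR libraries. The DN replicates differed by 5.51-fold, the widest DN gap of the set, on an estimated 20.7 and 92.4 reads. Retnlg was called higher in DP than in DN (log2 fold change 2.52, SE 0.554, limma adjusted p = 0.00703) and lower in C-LTMR than in DN (-2.45, adjusted p = 0.00831). Without the first DN library the log2 fold changes were 1.54 and -3.43, and without the second 3.495 and -1.47. Its ratio to Ngp was 0.613 and 0.468 in DP and 0.227 and 0.615 in DN, so that the subsets overlapped.

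The cytosolic genes were the most abundant of the set in DP, while in DN Lcn2 ranked between them by mean. S100a8 (Entrez 20201, chr3:90669071-90670034, + strand) and S100a9 (Entrez 20202, chr3:90692633-90695691, − strand) encode the subunits of calprotectin, which sequesters metal ions and signals in inflammation. S100a8 was at 59.4 and 75.6 RPKM in DP, 6.48 and 16.0 in DN, and 0.149 and 0 in C-LTMR. S100a9 was at 101.5 and 114.8 RPKM in DP, 13.4 and 26.3 in DN, and 0 and 0.127 in C-LTMR. The subsets did not overlap for either subunit, and S100a9 exceeded S100a8 by 1.52-fold to 2.07-fold in each DP and DN library. In limma, S100a8 differed between DP and DN by a log2 fold change of 2.65 (SE 0.381, adjusted p = 0.00104) and S100a9 by 2.49 (SE 0.294, adjusted p = 0.000425). The S100a8 value was 2.03 without the first DN library and 3.27 without the second. In C-LTMR against DN, the log2 fold change was -4.24 for S100a8 (adjusted p = 0.00013) and -5.11 for S100a9 (adjusted p = 2.02e-05), and the S100a8 value was -4.86 and -3.61 without the first and the second DN library.

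**Figure D2:**
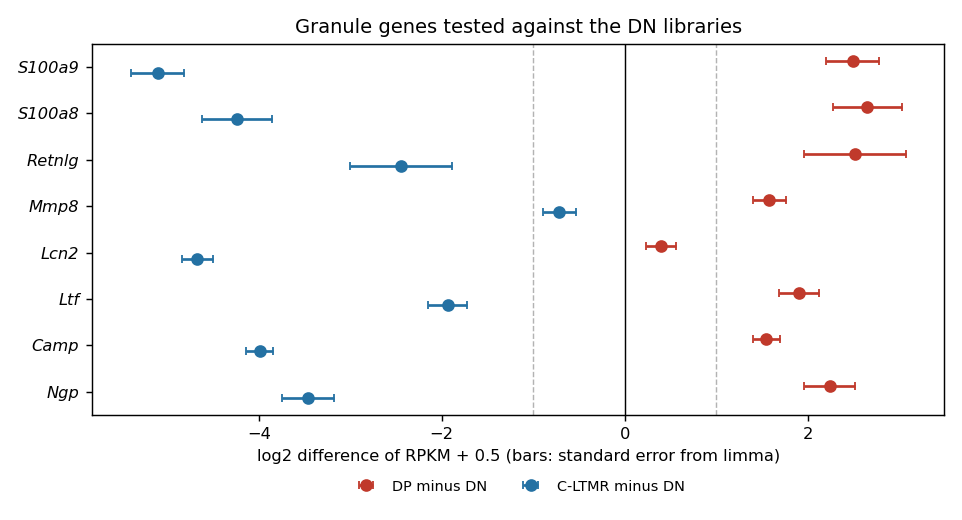
Log2 differences of RPKM + 0.5 from DN for the 8 genes tested, in DP (red) and C-LTMR (blue), with the standard error from limma (n = 2 libraries a subset). Dashed lines stand at a log2 difference of 1 in each direction. Lcn2 at 0.40 is the gene whose red point falls inside the lines, and Mmp8 at -0.72 the gene whose blue point does. Mmp8 passed the filter only through DP, and its red point is a description without a test.

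DP exceeded C-LTMR for each of the 10 genes, which is the contrast in view when they were chosen. All 8 genes that passed the filter exceeded the call thresholds there, where 4.56% of all genes tested were called higher in DP and 6.77% lower, and nothing is read from that count. In C-LTMR, 9 of the 10 genes were listed at 0 in at least 1 library and 4 in both. Against the floor of 3 reads per library, DP was at least 192-fold higher for Camp, 100.4-fold for Retnlg, 52.8-fold for Mmp8 and 8.98-fold for Elane, whose bound was 13.3-fold on the first DP library and 4.66-fold on the second. Where C-LTMR held a few reads, the ratio of means carried a wide counting interval (exact Poisson, 95%): 1705 (472 to 14080) for S100a9 on an estimated 2.2 reads, 906 (251 to 7480) for S100a8 on 2.5, and 537 (210 to 1971) for Ngp on 4.3. The ratio was 509 (141 to 4201) for Lcn2 on 2.1 reads, 1267 (227 to 50040) for Ltf on 1.0, and 26.9 (11.5 to 82.8) for Mpo on 5.0. The Poisson limits were taken on these reads rounded to whole numbers. S100a8, S100a9, Ltf and Lcn2 were at or under the floor in both C-LTMR libraries, so that their ratios are rough. The intervals hold the DP mean fixed and leave out the spread between DP libraries, which differed by 3.96-fold for Mpo. Intervals and floors cover counting error in C-LTMR only, and reads of amplified RNA are not independent molecules.

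The balance between maturation stages was taken within each library. The cytosolic genes made up 62.9% and 67.3% of the summed RPKM in DP and 45.6% and 51.9% in DN, and the secondary granule genes 29.7% and 27.7% in DP and 52.1% and 42.0% in DN. The primary granule genes were 0.917% and 0.252% of the sum in DP and 0.288% and 0.150% in DN. Retnlg was 6.55% and 4.82% in DP and 2.03% and 5.97% in DN. The cytosolic and secondary granule shares did not overlap between the subsets, and the primary and Retnlg shares did. Lcn2 alone was 11.2 of the 22.7 RPKM and 15.3 of the 34.3 RPKM of the secondary sum in DN. In DP it was 17.5 of 76.0 RPKM and 17.4 of 78.2 RPKM. Lcn2 thus made up a larger part of the secondary share in DN, and shares without it were not taken. The shares were not tested, since a two-sided exact permutation test of 2 libraries against 2 cannot give a p below 0.333.

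Ngp divided by Ltf was 3.90 and 4.49 in DP and 3.78 and 4.08 in DN, so that the subsets overlapped. S100a9 divided by Ngp was 3.71 and 3.94 in DP and 3.44 and 3.32 in DN, a narrow gap without overlap. Wider gaps separated the subsets in 2 other ratios, with Ngp over Camp at 1.22 and 1.26 in DP and 0.605 and 0.919 in DN, and Lyz2 (lysozyme, a secondary granule and macrophage enzyme) over Ngp at 1.25 and 1.02 in DP and 3.57 and 2.37 in DN. In DP the order of levels was S100a9, S100a8, Ngp, Camp, Lcn2, Retnlg, Ltf, Mmp8, Elane and Mpo, and Elane and Mpo were the neighbours whose libraries overlapped. In DN the ranges of neighbouring genes overlapped from S100a9 through Lcn2, S100a8, Camp, Ngp and Retnlg to Ltf, and Mmp8 lay below Ltf and above Mpo and Elane.

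**Figure D3:**
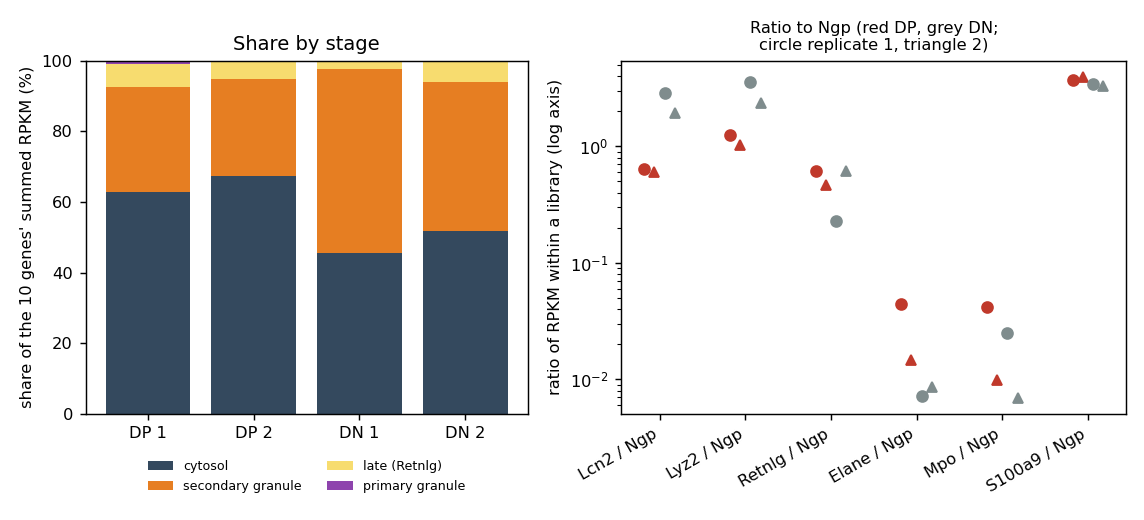
Left, share of the summed RPKM of the 10 genes by stage in the DP and DN libraries (percent, stacked bars). Right, RPKM of 5 of the genes and of Lyz2 divided by that of Ngp within each library on a log axis, with DP in red and DN in grey. Lcn2 over Ngp separates DP (0.639 and 0.596) from DN (2.87 and 1.93), while S100a9 over Ngp stays between 3.32 and 3.94.

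The second DN library exceeded the first in 9 of the 10 genes, Mpo being the exception, against 44.5% of all genes tested. The ratio of the second to the first ran from 1.34 for Camp to 5.51 for Retnlg among the 9. The same library held more glia and vessel marker RNA (3830 against 1466 RPKM) and more red cell marker RNA (7.69 against 2.02 RPKM). Fabp7 made up most of the glia and vessel sums (3542 against 1282 RPKM). Cldn5, Pecam1 and Col3a1 were also higher in the second library, and Prx was lower (20.8 against 28.3 RPKM). The part of either marker group in the difference was not tested. In DP, the first library was higher in 5 of the 10 genes, and for the 8 genes other than Elane and Mpo the ratio of the first to the second lay between 0.786 and 1.23.

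Other neutrophil genes did not all move in the direction of the set. Of 46 listed genes outside the set, 45 were in the table (Ly6g was not analysed here) and 25 passed the filter. In DP against DN, 11 of the 25 were called higher and 3 lower, beside 6.57% and 21.4% of all genes tested, with a median log2 fold change of 0.89 against -0.155 over all genes. Of the 25, 9 passed the filter only through DP, and of the other 16, a division made after seeing the data, 9 were called higher and 3 lower. In C-LTMR against DN, 3 of the 25 were called higher and 9 lower, beside 7.26% and 19.8% (median -0.50, against -0.06). Lrg1, called lower in both comparisons against DN, passed the filter only through DN, so that its calls do not stand as a test. In DP against C-LTMR, 15 were called higher and 0 lower, beside 4.56% and 6.77% (median 1.15, against -0.04), and Lyz2 of this list was in view beforehand. Among the 15, Cd177, Mmp9, Fpr1, Fpr2, Il1r2, Clec4d and Cybb passed the filter only through DP, so that their calls in this comparison do not stand as a test. The order of the 10 genes (DP above DN above C-LTMR, without overlap) was present in 12 of the 25 tested, beside 2.92% of all genes tested. The genes just named as admitted only through DP are among the 12. Over all 45 the count was 19, but the added genes lay below the filter, where no share over all genes was taken. The DP against DN count of 11 was 18 with quantile normalization and 5 with a pseudocount of 1, and the C-LTMR against DN count of 9 was 5 under either and 14 with a pseudocount of 0.1.

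Among the 10 other secondary granule genes, 8 were tested, 6 of them admitted without DP values. Of these 6, 3 were called higher and 1 lower in DP than in DN, beside 6.57% and 21.4% of all genes tested. Chi3l3 (a chitinase-like protein) was at 4.46 and 4.62 RPKM in DP, 0.698 and 1.29 in DN, and 0.0122 and 0 in C-LTMR (DP against DN log2 fold change 1.78, limma adjusted p = 0.0003). Hp (haptoglobin) was at 3.67 and 3.19 RPKM in DP, 0.629 and 0.644 in DN, and 0.0248 and 0.00829 in C-LTMR (1.79, limma adjusted p = 4.18e-05). Both followed the pattern of Ngp and Ltf. Ifitm6 was also called (1.02, limma adjusted p = 0.00304). The transcription factor gene Cebpe, which passed the filter only through DP, was at 0.546 and 0.623 RPKM there, 0.228 and 0.104 in C-LTMR, and 0 in both DN libraries. Lyz2 was at 34.3 and 29.8 RPKM in DP, 13.9 and 18.8 in DN, and 0.233 and 0.0302 in C-LTMR, and its log2 fold change of 0.96 in DP against DN (limma adjusted p = 0.00615) missed the fold threshold. Pglyrp1 was not called between DP and DN (-0.50, limma adjusted p = 0.0787), and Chi3l1 was lower in DP (-1.71, limma adjusted p = 0.00208). Of the 8 tested, 6 were called lower in C-LTMR than in DN and 0 higher, beside 19.8% and 7.26% of all genes tested.

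Of 9 tested tertiary granule and mature neutrophil genes, 4 were admitted without DP values, and 3 of these were called higher and 1 lower in DP than in DN, beside 6.57% and 21.4% of all genes tested. The cytokine gene Il1b was at 3.34 and 2.33 RPKM in DP, 0.723 and 1.15 in DN, and 0.0220 and 0.0233 in C-LTMR (1.22, limma adjusted p = 0.00204). The lectin receptor gene Clec4d was at 0.676 and 0.547 RPKM in DP, 0.0192 and 0.0928 in DN and 0 in C-LTMR, and it passed the filter only through DP. Mmp25 and Slpi did not follow the set, since C-LTMR exceeded DN. Mmp25, a membrane metalloproteinase gene, was at 14.4 and 15.3 RPKM in DP, 7.78 and 8.65 in C-LTMR, and 0.265 and 0.219 in DN. Slpi, a protease inhibitor gene, was at 5.40 and 4.85 RPKM in DP, 3.59 and 3.82 in C-LTMR, and 0.234 and 0.566 in DN. Lrg1, the gene called lower, was at 0.668 and 0.424 RPKM in DP and at 9.38 and 10.9 in DN. It passed the filter only through DN, so its log2 fold change of -3.35 in DP against DN is a description without a test. Of the receptor genes, Cxcr2 was at 0.320 and 0.206 RPKM in DP and Csf3r at 0.226 and 0.134. Both were lower in DN, Cxcr2 at 0.00843 and 0.0102 and Csf3r at 0.0190 and 0.0765. Il1r2 (1.21 and 1.28), Fpr2 (0.861 and 0.524) and Fpr1 (0.665 and 0.540) were higher in DP than these genes, and passed the filter only through DP.

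The 2 tested promyelocyte and primary granule genes were both called higher in DP than in DN, beside 6.57% of all genes tested called higher and 21.4% lower. In C-LTMR against DN, where 7.26% of all genes tested were called higher, Ms4a3 was called higher (log2 fold change 4.50, limma adjusted p = 7e-06). Prtn3 missed the fold threshold there (0.89, limma adjusted p = 0.00749). Ms4a3 was at 47.7 and 42.7 RPKM in DP, 13.5 and 13.2 in C-LTMR, and 0 and 0.245 in DN. Prtn3 (proteinase 3), which lies 3140 bp from Elane, was at 1.37 and 0.888 RPKM in DP, 0.703 and 0.638 in C-LTMR, and 0.0529 and 0.224 in DN. Prtn3 RNA was therefore present in C-LTMR libraries in which Elane was listed at 0. Of the cytosol and oxidase genes, Cyba was called lower in DP than in DN (4.82 and 4.53 RPKM against 10.3 and 15.9). Coro1a was abundant in each library, between 98.8 and 189.6 RPKM, and Alox5ap lay between 3.88 and 7.15 RPKM. The 7 stefin A cluster genes, near-identical copies whose reads the counting could split, were at 0.0750 RPKM or less in each library, and 3 were listed at 0 throughout.

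**Figure D4:**
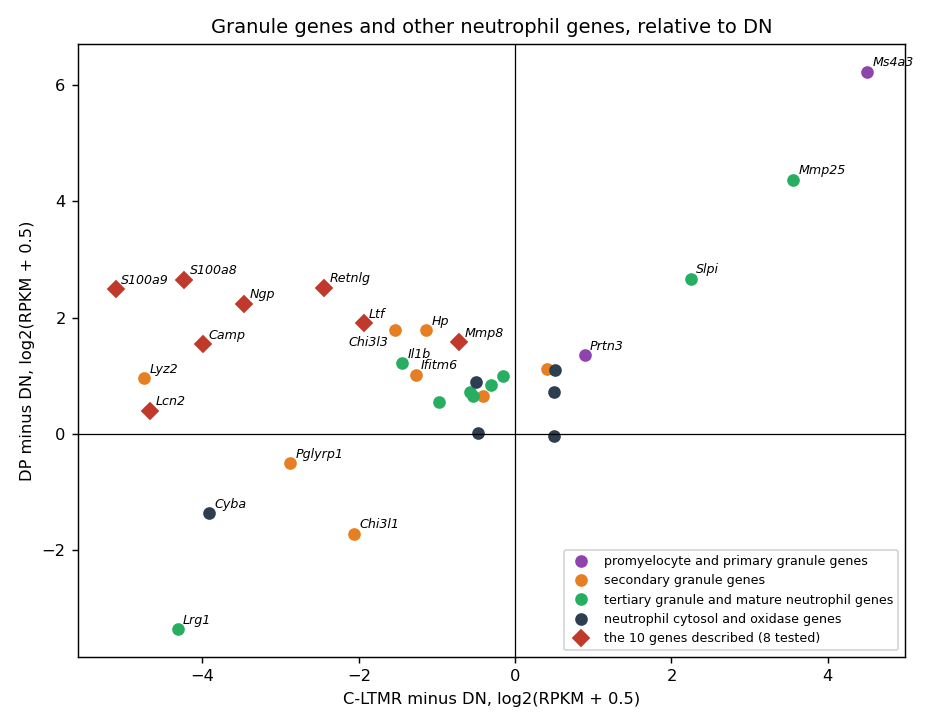
Log2 difference from DN in C-LTMR (horizontal axis) and in DP (vertical axis), both of RPKM + 0.5, for the 8 tested genes of the set (diamonds) and 25 other neutrophil genes (circles, coloured by list). Genes close to the origin are not named. The diamonds lie at the upper left, with Chi3l3, Hp, Il1b, Ifitm6 and Lyz2, while Ms4a3, Mmp25, Slpi and Prtn3 lie in the upper right and Lrg1, Cyba, Chi3l1 and Pglyrp1 in the lower left.

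Markers of other cell types were given as sums of RPKM over fixed lists, and the macrophage and monocyte list was the one whose sums had the order of the set, which turned on Ly6c2. The 14 macrophage and monocyte markers summed to 7.15 and 7.22 RPKM in DP, 6.91 and 5.33 in DN, and 1.39 and 1.72 in C-LTMR, and 9 of the 14 were under 0.5 RPKM in each library. Ly6c2, which monocytes and immature neutrophils share, was at 4.10 and 3.39 RPKM in DP, 0.961 and 0.559 in DN and 0 in C-LTMR. Without it the other 13 markers summed to 3.05 and 3.82 RPKM in DP and 5.95 and 4.77 in DN, so that DN was higher. C1qb was at 0.661 and 0.811 RPKM in DP and 2.13 and 1.63 in DN, Aif1 at 0.494 and 0.796 in DP and 1.64 and 1.58 in DN, and Cd68 at 0.555 and 0.515 in DP and 1.49 and 1.01 in DN. Other markers of the list went the other way. C1qa was at 0.351 and 0.771 RPKM in DP and 0.119 and 0.0573 in DN. C1qc was at 0.226 and 0.297 in DP and 0.0730 and 0 in DN, and Ccr2 at 0.265 and 0.218 in DP and 0.121 and 0.0789 in DN. Ms4a7, Emr1 and Cx3cr1, at lower levels, also had both DP libraries above both DN libraries. The defining genes Csf1r and Emr1 were at 0.264 RPKM or less in each library, and Cd163 at 0.0116 or less. The 8 B cell markers summed to at most 0.910 RPKM in DP and 1.51 in DN. The 7 mast cell, basophil and eosinophil markers summed to at most 1.63 in any library. The 6 T and NK cell markers summed to at most 1.06 RPKM in DP, 3.85 in DN and 4.91 in C-LTMR. Most of these sums was Lck, at 4.84 and 4.57 RPKM in C-LTMR and 3.62 and 3.43 in DN, while Cd3d, Cd3e, Cd3g and Ncr1 were at 0 in both C-LTMR libraries. Red cell markers were highest in C-LTMR, at a summed 35.6 and 47.7 RPKM, against 5.22 and 6.39 in DP and 2.02 and 7.69 in DN. Platelet markers summed to 3.45 and 2.39 RPKM in DN and to at most 0.895 elsewhere, and the 5 cycling cell markers to between 2.45 and 4.05. The part of any of these cells in the levels of the 10 genes was not tested.

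**Figure D5:**
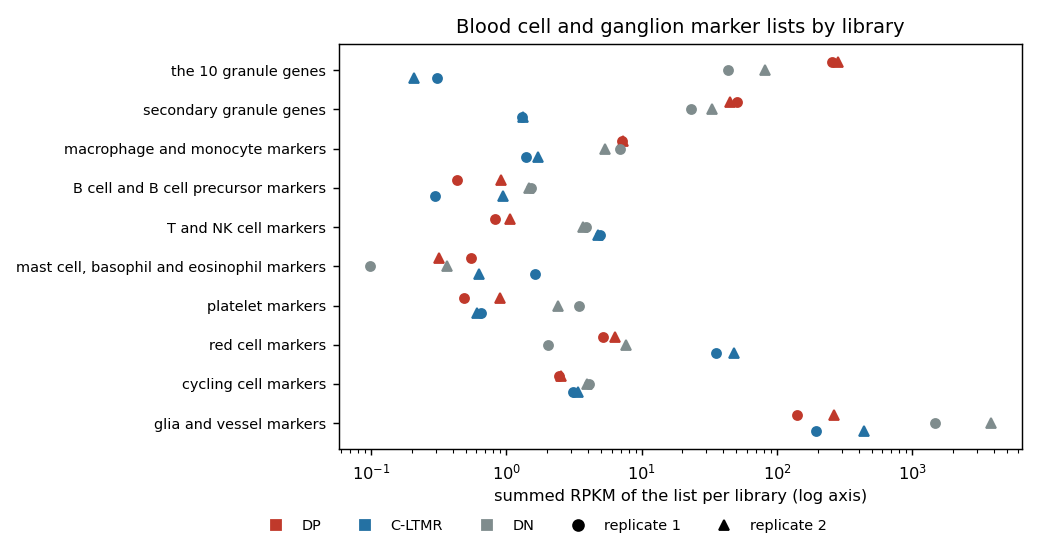
Summed RPKM per library on a log axis for the 10 genes, the other secondary granule genes and 8 marker lists, with DP in red, DN in grey and C-LTMR in blue. The 10 genes sum to 256.1 and 283.0 RPKM in DP and to 0.306 and 0.207 in C-LTMR, while red cell markers are highest in C-LTMR and glia and vessel markers in DN.

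The 10 genes lie on 6 chromosomes of GRCm38. S100a8 and S100a9 are 22.6 kb apart on chromosome 3 with 0 listed genes between them. Camp, Ngp and Ltf lie on chromosome 9, with 570.4 kb and 8 genes between Camp and Ngp and 596.3 kb and 20 genes between Ngp and Ltf. Of 18 distinct genes that flank the 10, 0 had the order DP above DN above C-LTMR, and 6 were under 0.5 RPKM in each library. Of 12 other S100a genes on chromosome 3, 0 had that order. With 2.92% of all genes tested in that order, a count of 0 is near the background for lists of this size. S100a6, a calcium-binding protein of many sensory neurons, was at 3597 and 3563 RPKM in DP, 1427 and 1372 in C-LTMR, and 1521 and 1343 in DN. S100a4 was highest in DN, at 123.7 and 136.7 RPKM, against 34.7 and 33.3 in DP and 5.38 and 5.95 in C-LTMR.

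Likeness to the set was measured as the root mean square difference over 6 libraries between the centred log2(RPKM + 0.5) of a gene and the median profile of the 8 genes tested, among 8530 other genes that reached 5 RPKM in at least 2 libraries. The closest were Serping1 (0.420), Lyz2 (0.578), Nupr1 (0.674), Cmtm8 (0.753), Rasa4 (0.761), Fam70a (0.851), Gpc3 (0.916), Ggta1 (1.001), Klk8 (1.04) and Ptprt (1.04). Within the set the difference ran from 0.155 for Ngp to 1.45 for Mmp8. Serping1, the complement C1 inhibitor gene, was at 290.6 ± 24.6 RPKM in DP, 48.7 ± 0.813 in DN and 5.76 ± 0.830 in C-LTMR. Its C-LTMR level was well above that of any of the 10 genes. Ggta1, which makes the sugar epitope that IB4 binds, was at 16.2 and 14.7 RPKM in DP, 4.31 and 4.60 in DN, and 1.12 and 0.950 in C-LTMR. Except for Lyz2, these are not genes of the neutrophil lists, and the measure describes the shape over 3 subsets only.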

How the data were processed

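RNA of 3 sorted DRG subsets was measured in 6 libraries, 2 a subset, grouped by the sample titles. The submitters' processing notes name edgeR 2.6.2, CASAVA 1.8.2 and the mouse build GRCm38. Aligner, annotation and strand handling are not stated there. The authors deposited RPKM for 23029 genes (19 symbols repeated) and a TMM-normalized signal for 6620 genes, which holds 2 of the 10 genes and served as an alternative. Coordinates and Entrez IDs are those of the deposited RPKM table.

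Depth was estimated from the spacing of low RPKM values of 1661 single-exon genes. Only 37.2% to 45.0% of such values were whole reads to within 0.05, so counts were not restored and count models not used. Read numbers per gene are estimates from that depth, and the floor is 3 reads per library. The limma fit (version 3.58.1, R 4.3.3) took all 6 libraries on log2(RPKM + 0.5) with an eBayes trend (3 residual degrees of freedom, median prior 3.61), a scale that understates changes of low genes. Fold changes are on that scale, p-values were adjusted over all 13478 genes tested, and 15 alternatives were run. Other steps ran in Python 3.11.15 (scipy 1.17.1, numpy 2.4.6, matplotlib 3.10.9, pandas 2.3.3).

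The 10 genes and all gene lists were chosen with earlier results of these data known. All 10 are named, and of each list the 4 with the highest mean RPKM and any called gene could be named. Cxcr2, Csf3r, Ctsg, Csf1r, Emr1, Cd163 and some flanking or S100 genes were named outside that rule, after their values were seen. So were C1qa, C1qc, Ccr2, Ms4a7, Cx3cr1, Cd3e, Ncr1, Myb and Gfi1. Some genes of the lists are not reported by name here, and the glia and vessel sum leaves out 1 listed gene.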

Additional observations from a re-analysis of the deposited data

How the results depend on the processing

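With 2 libraries a subset, 3 residual degrees of freedom and values near 1 read in C-LTMR, depth limits what can be said of Elane, Mpo and all C-LTMR levels. In DP against DN, 114 of 114 log2 fold changes of the 8 genes under the alternatives kept their direction and call, and in C-LTMR against DN 113 did, Mmp8 with a pseudocount of 0.1 being the other. The DP against DN values of Mmp8 are among the 114 as a description only, since that gene passed the filter only through DP. In DP against C-LTMR, 27 of 114 moved by more than the spread between replicates, such as S100a9 from 7.60 to 9.49 with a pseudocount of 0.1 and to 6.68 with 1. Leaving out each library in turn ended no call of the 8 genes and moved no count by over 1.5 times, but without a DN library the fold of S100a8 and of Retnlg against DN moved by more than that.

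Counts of other neutrophil genes moved with settings that change the fold of low genes. Those higher in DP than in DN (11) were 5 with a pseudocount of 1, 18 with quantile normalization and 2 in the TMM-normalized table. Those lower in C-LTMR than in DN (9) were 14 with a pseudocount of 0.1, 5 with 1, 5 with quantile normalization and 1 in the TMM-normalized table. Those higher in DP than in C-LTMR (15) were 8 with a pseudocount of 1, 9 with a filter of 1 RPKM and 1 in the TMM-normalized table. In that table, which holds fewer genes, calls over all genes were 1645 in DP against DN (3776 in RPKM), 1562 in C-LTMR against DN (3650) and 843 in DP against C-LTMR (1527), and 2 genes of the set, S100a9 and Ngp, are in it and passed the thresholds in each comparison (2, 2 and 2, against 7, 7 and 8 in RPKM, Mmp8 included). In DP against C-LTMR these numbers restate the choice of the set.

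The replicate numbers are not said to mark a shared animal or batch. Deviations of same-numbered libraries correlated over genes at 0.473 (DP and C-LTMR), 0.12 (DP and DN) and 0.319 (C-LTMR and DN). With a replicate block, 3784, 3652 and 1543 genes were called in DP against DN, C-LTMR against DN and DP against C-LTMR, and no call of the 8 genes changed.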
